A study of Homo sapiens with 24 samples.

Results

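SRC-family kinases and the 2 proteins that hold them in check were followed in 4 human B-cell lymphoma lines treated with TAK-981. The set comprises 9 of the 58676 gene IDs in the count table: the 7 kinases LYN, BLK, FGR, LCK, FYN, SRC and YES1 and the 2 regulators CSK and PAG1. They were chosen by gene symbol, with earlier results of these data known, and all 9 passed the filter on low counts that left 17327 genes for testing. TAK-981 blocks the enzyme that activates SUMO, a small protein related to ubiquitin that cells couple to other proteins. The groups are U-2932, OCI-LY19, OCI-LY3 and SU-DHL-10 cells after 8 h of TAK-981 and the same lines at 0 h, with 2 RNA-seq libraries in each of the 8 groups. All are labelled as wild-type B cells of diffuse large B-cell lymphoma, and no dose is stated in the labels. There is no 8 h vehicle group among the libraries used, so every change also holds whatever 8 h in culture did. Whether the replicates were separate cultures is not labelled, so the p-values rest on a spread between libraries that may be only technical. In bulk RNA, fewer cells of a type and less RNA per cell cannot be told apart.

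SRC-family kinases are tyrosine kinases anchored to the inner face of the plasma membrane. In B cells they act first after the antigen receptor is engaged, by phosphorylating the cytoplasmic tails of its signalling chains CD79A and CD79B. CSK phosphorylates a tyrosine near the end of each family kinase and so folds it into an inactive shape, and the membrane protein PAG1 brings CSK to its targets. LYN also phosphorylates inhibitory receptors such as CD22, so that it both starts and restrains the signal.

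Each library held between 16770677 and 24694466 gene counts. All 6 B-cell markers were detected in every group. Of 11 T-cell and NK-cell markers, CD3D had 0 counts throughout, but others were detected. At 0 h CD247 averaged 34.2 CPM in SU-DHL-10, and CD7 averaged 5.76 CPM in U-2932. The B-cell markers summed to 1540 to 1550 CPM at 8 h and 2260 to 2320 CPM at 0 h in U-2932, and to 2590 to 2620 CPM at 8 h and 3320 to 3400 CPM at 0 h in OCI-LY3. The sums were 1500 to 1510 CPM at 8 h and 1530 to 1570 CPM at 0 h in OCI-LY19, and 3550 to 3630 CPM at 8 h and 3480 to 3920 CPM at 0 h in SU-DHL-10. Of 6 epithelial, stromal and endothelial markers, the sum was 121 to 173 CPM at 8 h and 69.1 to 98.3 CPM at 0 h in the OCI lines, and at most 9.92 CPM in the others. COL1A1 made up nearly all of it in the OCI lines, where COL3A1 and CDH5 had 0 counts. The part of these markers in the results was not tested. SU-DHL-10, as the labels have it, appears as SU-DHL4 in the text of the series, and the labels are followed. OCI-LY3 and OCI-LY19 were much alike at 0 h, with r = 0.983 across 17327 genes against 0.861 to 0.904 for the other pairs, and genes are not independent replicates. Added spike-in RNAs took 0.382% to 0.62% of counts in U-2932 and OCI-LY19, against 0.0435% to 0.0823% in OCI-LY3 and SU-DHL-10. Levels are TMM-scaled CPM, counts of a gene relative to the library's total, and changes are log2 fold changes of 8 h over 0 h with the standard error (SE). Gene lengths were not used, so levels are compared between libraries for 1 gene and not between genes. Scaling to the spike-ins moved the median change of all genes from 0 to 0.70 in U-2932, 0.20 in OCI-LY3 and 0.11 in SU-DHL-10, and left it at 0 in OCI-LY19. The share of higher genes among all called ones was then 92.5% in U-2932, 81.3% in OCI-LY3 and 87.1% in SU-DHL-10, against 51%, 51.1% and 50.1% with TMM. With total counts in place of TMM it was 26.6% in OCI-LY19 and 70.6% in SU-DHL-10, against 54.9% and 50.1%.

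The 9 genes did not move as 1 block. LCK and CSK fell at 8 h in all 4 lines, FGR fell in both OCI lines, and BLK rose in U-2932 but fell in the other lines. LYN rose in the OCI lines, and PAG1 rose in U-2932 and fell in the OCI lines. FYN rose in OCI-LY3, SRC in OCI-LY19 and YES1 in U-2932. With spike-in scaling the LCK and CSK changes in U-2932 were near 0, and CSK had the opposite sign there. LYN, FGR, FYN and SRC were then called higher in U-2932. The CSK falls in OCI-LY3 and SU-DHL-10 and the BLK fall in SU-DHL-10 were not called with that scaling. Changes were called at an adjusted p under 0.05 in edgeR's quasi-likelihood test.

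In U-2932, 5 of the 9 members were called, where 50.9% of all tested genes were. Of these members 3 were higher and 2 lower, against 25.9% and 25% of all genes. OCI-LY19 had 7 called members, against 39.4% of all genes, with 2 higher and 5 lower beside 21.6% and 17.8% of all genes. OCI-LY3 likewise had 7, against 25.5% of all genes, with 2 higher and 5 lower beside 13% and 12.5%. SU-DHL-10 had 3, against 12.6% of all genes, with 0 higher and 3 lower beside 6.3% and 6.27%. The median change of the 9 members was 0.03 in U-2932, -0.42 in OCI-LY19, -0.71 in OCI-LY3 and -0.19 in SU-DHL-10, beside 0 for all genes in each line. These medians include values that rest on too few counts to measure a change. They are YES1 outside U-2932, at -2.56 in OCI-LY3 from 0 counts at 8 h and 1 at 0 h, and FYN in SU-DHL-10. The OCI-LY3 median would be nearer 0 without YES1. The count of 3 in SU-DHL-10 fell to 1 without TMM, with spike-in scaling or with the libraries of that line alone, which kept LCK only.

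**Figure D1:**
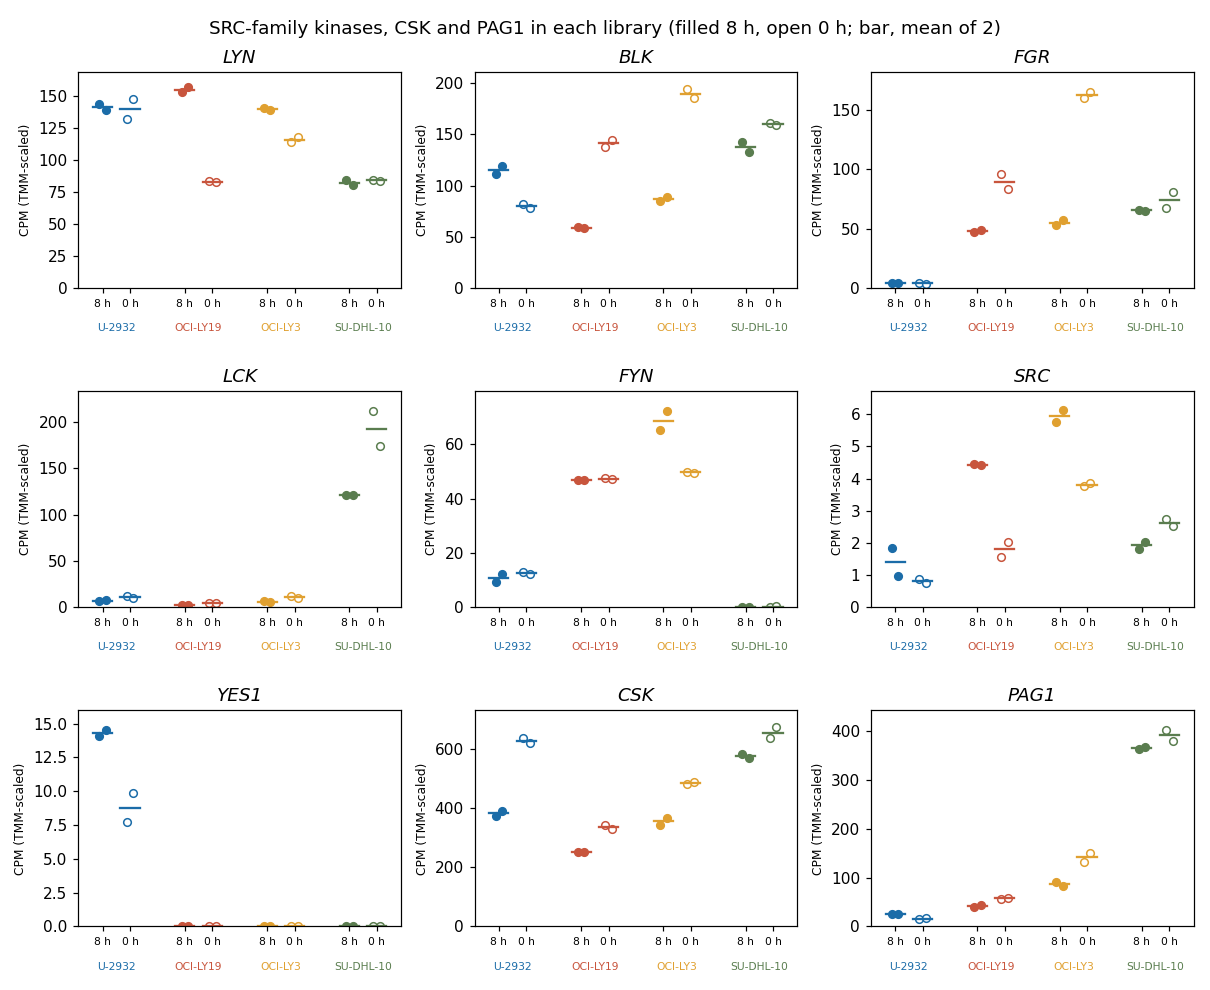
Level of each member in CPM (linear axis from 0) in every library, by line, with filled circles for 8 h, open circles for 0 h and a bar at the mean of 2 libraries. LCK stands highest in SU-DHL-10, YES1 is present in U-2932 alone, and BLK lies above its 0 h level in U-2932 and below it in the other lines.

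LYN (ENSG00000254087), the most studied SRC-family kinase of B cells, rose in both OCI lines and was not called in the other lines with TMM scaling. In OCI-LY19, LYN had 153 and 157 CPM at 8 h, against 83.3 and 82.6 CPM at 0 h. Both treated libraries stood far above both untreated ones, and the change was 0.90 ± 0.07 with an adjusted p of 4.83e-13 (edgeR). In OCI-LY3 it had 141 and 139 CPM at 8 h, against 114 and 118 CPM at 0 h, a smaller rise of 0.27 ± 0.07 with an adjusted p of 0.0021 (edgeR). In U-2932 the 8 h libraries, at 144 and 139 CPM, lay within the span of the 0 h libraries, at 132 and 148 CPM. SU-DHL-10 held 84.2 and 80.5 CPM at 8 h, against 84.5 and 83.8 CPM at 0 h, and LYN was not called in either of these lines. The 95% interval of the change ran from -0.12 to 0.15 in U-2932 and from -0.17 to 0.11 in SU-DHL-10. With spike-in scaling LYN was called higher in U-2932, at 0.74 (adjusted p = 9.67e-06). The change in OCI-LY19 lay above that in OCI-LY3 by 0.63 ± 0.10 (adjusted p = 1.33e-05, edgeR). It lay above that in SU-DHL-10 by 0.93 ± 0.10 (adjusted p = 2.18e-09, edgeR). With spike-in scaling the first difference was 0.37 and not called.

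BLK (ENSG00000136573), a family kinase largely restricted to the B lineage, changed in all 4 lines but not in 1 direction. In U-2932, BLK had 111 and 119 CPM at 8 h, against 81.9 and 78.3 CPM at 0 h. That rise of 0.52 ± 0.07 (adjusted p = 7.12e-08, edgeR) set U-2932 apart, since its 8 h libraries lay above its 0 h libraries while the reverse held elsewhere. OCI-LY19 had 59.4 and 58.3 CPM at 8 h, against 138 and 144 CPM at 0 h. OCI-LY3 had 84.9 and 88.8 CPM at 8 h, against 194 and 185 CPM at 0 h. These were the deepest falls of BLK, -1.27 ± 0.07 in OCI-LY19 and -1.13 ± 0.07 in OCI-LY3, with adjusted p of 1.2e-16 and 3.75e-15 (edgeR). SU-DHL-10 had 142 and 133 CPM at 8 h, against 161 and 159 CPM at 0 h, a fall of -0.22 ± 0.07 with an adjusted p of 0.02 (edgeR). That last call was lost without replicate 1 at 8 h (adjusted p = 0.0514), replicate 2 at 8 h (0.243) or replicate 1 at 0 h (0.0692, edgeR). The change in U-2932 was 1.79 ± 0.10 above that in OCI-LY19, 1.65 ± 0.10 above that in OCI-LY3 and 0.74 ± 0.09 above that in SU-DHL-10, with adjusted p of 1.42e-16, 1.87e-15 and 1.21e-07 (edgeR). These 3 differences kept their sign and their call under every scaling tried. The fall in SU-DHL-10 itself was not called with spike-in scaling (-0.085) or without TMM (-0.16).

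FGR (ENSG00000000938) is a family kinase best known from granulocytes and monocytes and also found in some B cells. Its promoters are shown because FGR had the deepest fall of any member in a single line. RefSeq (GRCh38.p14) gives 2 start sites, and each window runs from 250 bases before to 50 after the start. Capitals mark matches on either strand to an ETS-type motif (GAGGAA), a kappaB-type motif (GGGA, then 4 bases of any kind, then CC) or the octamer ATGCAAAT of B-cell promoters.
FGR start 1, chr1:27626548-27626847, minus strand: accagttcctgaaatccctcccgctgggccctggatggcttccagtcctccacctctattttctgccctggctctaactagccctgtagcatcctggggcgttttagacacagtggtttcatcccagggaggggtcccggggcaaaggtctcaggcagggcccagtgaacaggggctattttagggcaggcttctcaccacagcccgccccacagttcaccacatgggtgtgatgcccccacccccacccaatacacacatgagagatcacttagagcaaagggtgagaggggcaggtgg
FGR start 2, chr1:27635136-27635435, minus strand: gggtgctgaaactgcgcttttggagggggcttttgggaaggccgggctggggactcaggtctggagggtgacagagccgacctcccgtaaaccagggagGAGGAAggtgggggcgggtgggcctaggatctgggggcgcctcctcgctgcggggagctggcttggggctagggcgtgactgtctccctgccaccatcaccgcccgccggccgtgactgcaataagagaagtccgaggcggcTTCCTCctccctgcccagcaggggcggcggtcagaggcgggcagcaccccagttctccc
The first window held none of these motifs, and the second held 2 matches to the ETS-type motif, which occurs in 27.9% of 35116 windows of this length. A GC box (GGGCGG, not in capitals) was found 1 time in the first window and 3 times in the second, and 45% of all windows hold one. A match is a run of letters and not a known site.

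In OCI-LY3, FGR had 52.7 and 57.3 CPM at 8 h, against 160 and 165 CPM at 0 h. Both treated libraries lay far below both untreated ones, a change of -1.56 ± 0.09 with an adjusted p of 4.74e-16 (edgeR). OCI-LY19 had 47.3 and 48.4 CPM at 8 h, against 95.5 and 82.9 CPM at 0 h, a fall of -0.90 ± 0.09 (adjusted p = 2.26e-10, edgeR). The OCI lines, which differed at 0 h by 0.87 ± 0.08 (OCI-LY19 lower, adjusted p = 2.41e-10, edgeR), thus averaged 47.9 CPM (OCI-LY19) and 55 CPM (OCI-LY3) at 8 h. FGR was hardly made in U-2932, at 4.24 and 3.83 CPM at 8 h, against 4.36 and 3.59 CPM at 0 h, with overlapping libraries and no call. With spike-in scaling it was called higher there, at 0.75 (adjusted p = 0.00254). SU-DHL-10 had 65.9 and 64.5 CPM at 8 h, against 66.9 and 81.1 CPM at 0 h. Its change of -0.18 ± 0.09 was not called (adjusted p = 0.182, edgeR), but was called without replicate 1 at 0 h, at -0.31 (adjusted p = 0.0193). The change in OCI-LY3 lay below that in SU-DHL-10, with a difference of -1.38 ± 0.12 (adjusted p = 1.54e-10, edgeR). So did the change in OCI-LY19, at -0.72 ± 0.12 (adjusted p = 1.94e-05, edgeR). Markers of monocytes, macrophages and granulocytes summed to 3.51 to 5.46 CPM at 8 h and 7.8 to 8.4 CPM at 0 h in OCI-LY3. In OCI-LY19 they summed to 10.9 to 12.2 CPM at 8 h and 12.5 to 13.7 CPM at 0 h. ITGAM made up most of these sums. It averaged 9.26 CPM at 8 h and 11.2 CPM at 0 h in OCI-LY19. In OCI-LY3 it averaged 3.54 CPM at 8 h and 7.14 CPM at 0 h. CSF1R averaged 1.26 CPM at 8 h and 0.936 CPM at 0 h in OCI-LY19, and 0.595 and 0.414 CPM in OCI-LY3. CD14 averaged 0.908 CPM at 8 h and 0.662 CPM at 0 h in OCI-LY19, and 0.198 and 0.207 CPM in OCI-LY3. The part of these markers in the FGR result was not tested.

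LCK (ENSG00000182866) is the family kinase of T cells, also made by some B-cell tumours. It fell in every line, and its promoter windows are shown for that reason, with capitals as above. RefSeq gives 2 start sites.
LCK start 1, chr1:32251015-32251314, plus strand: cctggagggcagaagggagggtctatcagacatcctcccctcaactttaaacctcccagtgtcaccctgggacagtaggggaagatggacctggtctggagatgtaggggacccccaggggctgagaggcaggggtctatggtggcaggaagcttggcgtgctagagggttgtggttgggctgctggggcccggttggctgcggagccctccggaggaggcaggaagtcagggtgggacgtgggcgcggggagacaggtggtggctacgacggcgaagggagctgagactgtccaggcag
LCK start 2, chr1:32273871-32274170, plus strand: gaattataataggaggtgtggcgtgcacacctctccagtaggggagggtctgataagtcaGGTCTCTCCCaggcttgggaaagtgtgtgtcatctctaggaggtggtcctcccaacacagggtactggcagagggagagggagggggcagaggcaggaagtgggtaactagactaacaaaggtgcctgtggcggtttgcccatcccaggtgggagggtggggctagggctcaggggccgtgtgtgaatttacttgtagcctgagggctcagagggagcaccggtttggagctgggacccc
The window of start 2 held 1 match to the kappaB-type motif, which occurs in 25.6% of all windows, and that of start 1 held no match. None of the 10 windows found for 5 of the 9 members held the octamer, which occurs in 1.77% of all windows.

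SU-DHL-10 had by far the most LCK, 121 and 121 CPM at 8 h, against 212 and 174 CPM at 0 h. The other lines held between 2.21 and 12.7 CPM. In SU-DHL-10 the change was -0.68 ± 0.09 (adjusted p = 1.23e-06, edgeR). U-2932 had 6.35 and 7.36 CPM at 8 h, against 12.7 and 10.5 CPM at 0 h (-0.75 ± 0.14, adjusted p = 2.92e-05, edgeR). OCI-LY19 had 2.26 and 2.21 CPM at 8 h, against 4.48 and 4.23 CPM at 0 h (-0.96 ± 0.20, adjusted p = 2e-04, edgeR). OCI-LY3 had 6.46 and 5.68 CPM at 8 h, against 12.5 and 10.2 CPM at 0 h (-0.90 ± 0.15, adjusted p = 1.13e-05, edgeR). In no line did the treated and untreated libraries overlap. A difference of the change between lines was not called for LCK (adjusted p = 0.54, 3 degrees of freedom, edgeR), which does not show that the changes were equal. With spike-in scaling the change in U-2932 was -0.02 and not called, and the lines then differed (adjusted p = 0.0287). The 11 T-cell and NK-cell markers summed to 23.4 to 24.1 CPM at 8 h and 33.6 to 36.8 CPM at 0 h in SU-DHL-10. CD247 made up nearly all of that sum, averaging 22.9 CPM at 8 h and 34.2 CPM at 0 h. CD3D, CD2, CD7, CD8A and GZMB had 0 counts there at both times. In U-2932 the 11 markers summed to 5 to 5.31 CPM at 8 h and 15.4 to 15.9 CPM at 0 h. There CD7 averaged 0.487 CPM at 8 h and 5.76 CPM at 0 h, and CD3D, CD3G and CD2 had 0 counts. The part of these markers in the LCK result was not tested.

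FYN (ENSG00000010810), a broadly made family kinase, was called with TMM scaling in OCI-LY3 only, where it rose. There it had 65.2 and 72.2 CPM at 8 h, against 49.7 and 49.6 CPM at 0 h (0.47 ± 0.10, adjusted p = 0.000721, edgeR). OCI-LY19 had 47 and 47 CPM at 8 h, against 47.7 and 47.1 CPM at 0 h, and the interval of its change ran from -0.22 to 0.20. U-2932 had 9.42 and 12.2 CPM at 8 h, against 12.8 and 12.3 CPM at 0 h (-0.21 ± 0.14, adjusted p = 0.207), and was called, at -0.41, without replicate 2 at 8 h (adjusted p = 0.0412, edgeR). With spike-in scaling FYN in U-2932 was called in the opposite direction, at 0.52 (adjusted p = 0.0138). In SU-DHL-10, which made almost no FYN, 3 counts were seen at 8 h and 9 at 0 h, a ratio of 0.326 with a 95% counting interval of 0.0567 to 1.3. The lines differed in the FYN change (adjusted p = 0.00182, edgeR), but not when OCI-LY3 was left out (adjusted p = 0.27).

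SRC (ENSG00000197122), the founding member of the family, was low throughout, at 0.751 to 6.13 CPM. In OCI-LY19 it had 4.44 and 4.41 CPM at 8 h, against 1.57 and 2.04 CPM at 0 h, a rise of 1.29 ± 0.28 (adjusted p = 0.00028, edgeR). OCI-LY3 had 5.76 and 6.13 CPM at 8 h, against 3.76 and 3.85 CPM at 0 h (0.64 ± 0.26, adjusted p = 0.0615, edgeR), and passed the threshold without replicate 2 of SU-DHL-10 at 0 h (adjusted p = 0.0496), with spike-in scaling (0.0167), with the filter at 5 CPM (0.0381) and with its own libraries alone (0.0181). U-2932 had 1.85 and 0.958 CPM at 8 h, against 0.884 and 0.751 CPM at 0 h (0.77 ± 0.38, adjusted p = 0.0853), and passed it without replicate 2 at 8 h, at 1.18 (adjusted p = 0.017), without TMM, at 0.88 (0.0483), and with spike-in scaling, at 1.48 (0.000765, edgeR). SU-DHL-10 had 1.82 and 2.03 CPM at 8 h, against 2.73 and 2.52 CPM at 0 h (-0.45 ± 0.29, adjusted p = 0.37). The treated libraries lay above the untreated ones in the first 3 lines and below them in SU-DHL-10. The change in OCI-LY19 was 1.74 ± 0.40 above that in SU-DHL-10 (adjusted p = 0.000867, edgeR).

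YES1 (ENSG00000176105), a broadly made family kinase, was a gene of U-2932 alone in these libraries. Its promoter is shown because the gene was at or near 0 in the other lines, with capitals as above.
YES1, chr18:812193-812492, minus strand: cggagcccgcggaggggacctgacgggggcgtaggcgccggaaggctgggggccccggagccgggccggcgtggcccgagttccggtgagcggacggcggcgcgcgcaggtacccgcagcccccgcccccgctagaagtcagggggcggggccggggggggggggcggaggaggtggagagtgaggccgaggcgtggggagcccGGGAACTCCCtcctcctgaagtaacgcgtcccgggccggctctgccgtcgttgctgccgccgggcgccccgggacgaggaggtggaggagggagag
This window held 1 match to the kappaB-type motif and 3 GC boxes, and 39 CpG dinucleotides where the median of all windows is 14. U-2932 had 14.1 and 14.5 CPM at 8 h, against 7.72 and 9.86 CPM at 0 h (0.70 ± 0.23, adjusted p = 0.0124, edgeR). The call was lost without replicate 1 at 8 h (adjusted p = 0.0682), replicate 2 at 8 h (0.0932) or replicate 1 at 0 h (0.137), and with DESeq2 (0.068). Of the 12 libraries of the other lines, 11 had 0 counts and 1 library of OCI-LY3 at 0 h had 1 count. A count of 0 in a group allows up to 3 counts, 0.0739 CPM in OCI-LY19 and 0.0679 CPM in SU-DHL-10 at 0 h. From its 315 counts, YES1 in U-2932 at 0 h was thus at least 119-fold higher than in OCI-LY19 and at least 130-fold higher than in SU-DHL-10. Against OCI-LY3 the ratio was 298, with a 95% counting interval of 53.1 to 11800. These floors and intervals cover counting error only.

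CSK (ENSG00000103653), the kinase that inactivates the family, fell in every line. U-2932 had 375 and 390 CPM at 8 h, against 637 and 620 CPM at 0 h (-0.72 ± 0.06, adjusted p = 2.88e-12, edgeR). OCI-LY19 had 253 and 252 CPM at 8 h, against 343 and 331 CPM at 0 h (-0.42 ± 0.06, adjusted p = 6.25e-07, edgeR). OCI-LY3 had 344 and 368 CPM at 8 h, against 481 and 487 CPM at 0 h (-0.44 ± 0.06, adjusted p = 3.28e-07, edgeR). SU-DHL-10 had 582 and 569 CPM at 8 h, against 636 and 675 CPM at 0 h (-0.19 ± 0.06, adjusted p = 0.0294, edgeR). The groups overlapped in no line. The SU-DHL-10 call was lost without replicate 1 at 8 h (adjusted p = 0.117), replicate 2 at 8 h (0.204) or replicate 2 at 0 h (0.164). The change in U-2932 lay below that in SU-DHL-10, with a difference of -0.53 ± 0.08 (adjusted p = 4.35e-06, edgeR). Relative to the spike-ins the change was 0.01 in U-2932, -0.19 in OCI-LY3 and -0.05 in SU-DHL-10, none of them called, and the difference between lines was no longer called (adjusted p = 0.264).

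PAG1 (ENSG00000076641), the membrane anchor of CSK, rose in U-2932, fell in the OCI lines and was not called in SU-DHL-10. In U-2932, the line with the least, it had 25.5 and 26.3 CPM at 8 h, against 15 and 16.6 CPM at 0 h (0.71 ± 0.10, adjusted p = 1.33e-07, edgeR). OCI-LY19 had 40 and 43.8 CPM at 8 h, against 55.8 and 59 CPM at 0 h (-0.45 ± 0.08, adjusted p = 1.93e-05, edgeR). OCI-LY3 had 91.5 and 82 CPM at 8 h, against 132 and 151 CPM at 0 h (-0.71 ± 0.07, adjusted p = 2.69e-09, edgeR). SU-DHL-10, the line with the most, had 364 and 368 CPM at 8 h, against 402 and 380 CPM at 0 h (-0.10 ± 0.07, adjusted p = 0.442, edgeR). The groups did not overlap in any line, though the SU-DHL-10 change was not called. The change in U-2932 lay above that in OCI-LY19 by 1.17 ± 0.13, in OCI-LY3 by 1.42 ± 0.12 and in SU-DHL-10 by 0.81 ± 0.12, with adjusted p of 1.39e-09, 1.74e-11 and 1.61e-06 (edgeR).

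**Figure D2:**
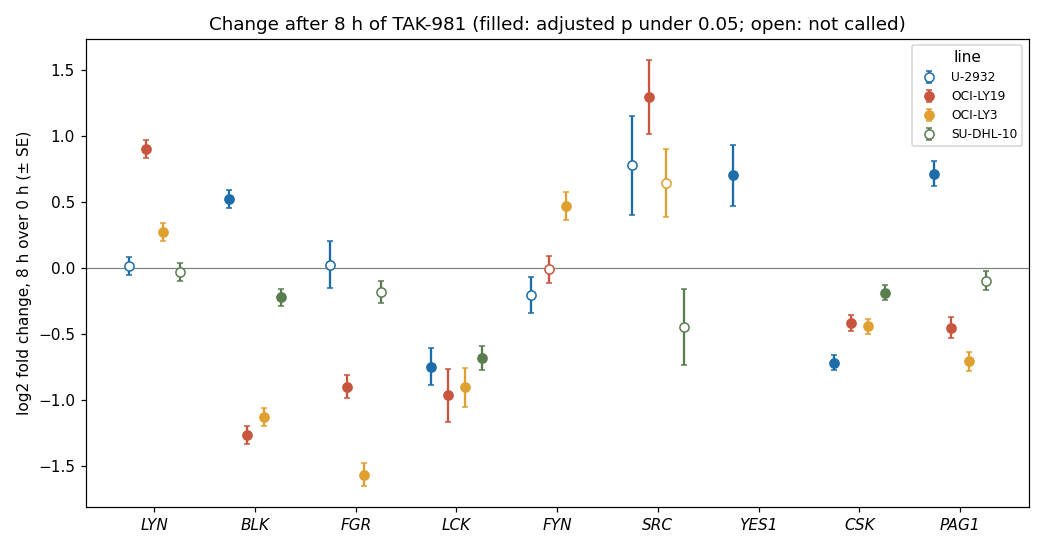
Log2 fold change of 8 h over 0 h (points) with its SE (bars) for each member in each line, TMM-scaled, filled where the adjusted p was under 0.05. LCK and CSK lie below 0 in all 4 lines (with spike-in scaling both are near 0 in U-2932), while BLK and PAG1 lie above 0 in U-2932 and below it in the other lines. Values with a group at or under 3 counts are left out.

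A single 8 h change shared by the 4 lines, fitted as 1 value, was called for 3 of the 9 members, 0 higher and 3 lower. Of all genes 18.1% were called, 10% higher and 8.09% lower. The fitted value is not the mean of the 4 line changes. The called members were LCK (-0.81 ± 0.08, adjusted p = 1.77e-05), FGR (-0.71 ± 0.17, adjusted p = 0.00959) and CSK (-0.44 ± 0.07, adjusted p = 0.00054, edgeR with terms for line and time). For FGR and CSK the change also differed between lines, so 1 value does not describe each line. FGR lost its call without OCI-LY19 (-0.64, adjusted p = 0.0605) or without OCI-LY3 (-0.39, adjusted p = 0.105). With spike-in scaling LCK kept its call (-0.53, adjusted p = 0.0089), FGR (-0.44) and CSK (-0.16) lost theirs, and LYN (0.57, adjusted p = 0.00243) and SRC (0.81, adjusted p = 0.0179) gained one. BLK (-0.53 ± 0.19, adjusted p = 0.0662), LYN (0.29 ± 0.11, adjusted p = 0.0686) and SRC (0.56 ± 0.22, adjusted p = 0.0828) missed the threshold, though all 3 passed it as the mean of the 4 line contrasts. BLK also passed with no filter (adjusted p = 2.62e-06), with DESeq2 (0.0304) and without any 1 library of U-2932 (0.0264 to 0.0481). LYN also passed with no filter (adjusted p = 0.0209), without TMM (0.0322) and without SU-DHL-10 (0.0362). SRC also passed without SU-DHL-10 (0.91, adjusted p = 0.00668) and without its replicate 1 at 8 h (0.0394) or at 0 h (0.0483). Without U-2932, BLK was at -0.87 (adjusted p = 0.000555), PAG1 at -0.42 (0.00475) and LYN at 0.38 (0.0293), and these were called. PAG1 with all lines stood at -0.15 ± 0.14 (adjusted p = 0.495), and FYN at 0.05 ± 0.15 (adjusted p = 0.86, edgeR).

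The size of the 8 h change differed between the 4 lines for 7 of the 9 members, where 53.5% of all genes were called. The smallest adjusted p belonged to BLK (6.18e-17, edgeR, 3 degrees of freedom), and the exceptions were LCK and YES1, of which YES1 could be measured in 1 line only. Leaving out OCI-LY19 kept the count at 7, and leaving out OCI-LY3 made it 6. The lines share libraries between these comparisons, so the pairs are not independent.

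Ratios of 2 members within a library do not depend on the scaling. The log2 ratio of LYN to CSK counts was -1.38 and -1.49 at 8 h in U-2932, against -2.27 and -2.07 at 0 h. In OCI-LY19 it was -0.73 and -0.69 at 8 h, against -2.04 and -2 at 0 h. OCI-LY3 had -1.29 and -1.4 at 8 h, against -2.08 and -2.05 at 0 h, and SU-DHL-10 had -2.79 and -2.82 at 8 h, against -2.91 and -3.01 at 0 h. LYN thus gained on CSK in all 4 lines with no overlap, by 0.73 in U-2932, 1.32 in OCI-LY19, 0.72 in OCI-LY3 and 0.16 in SU-DHL-10. With 2 libraries against 2, these are given without a test.

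The ratio of BLK to LYN shifted up in U-2932 and down in the other lines. The log2 ratio of BLK to LYN counts was -1.36 and -1.43 at 8 h in OCI-LY19, against 0.73 and 0.81 at 0 h. In OCI-LY3 it was -0.73 and -0.65 at 8 h, against 0.77 and 0.65 at 0 h. U-2932 had -0.38 and -0.22 at 8 h, against -0.69 and -0.92 at 0 h, and SU-DHL-10 had 0.75 and 0.72 at 8 h, against 0.93 and 0.93 at 0 h. The mean shift was 0.50 in U-2932, -2.17 in OCI-LY19, -1.4 in OCI-LY3 and -0.19 in SU-DHL-10, again with no overlap. FGR to LYN shifted by -1.79 in OCI-LY19 and -1.84 in OCI-LY3, with no overlap, and overlapped between times in the other lines. PAG1 to CSK shifted by 1.43 in U-2932 and -0.26 in OCI-LY3 with no overlap, and overlapped in OCI-LY19 and SU-DHL-10.

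**Figure D3:**
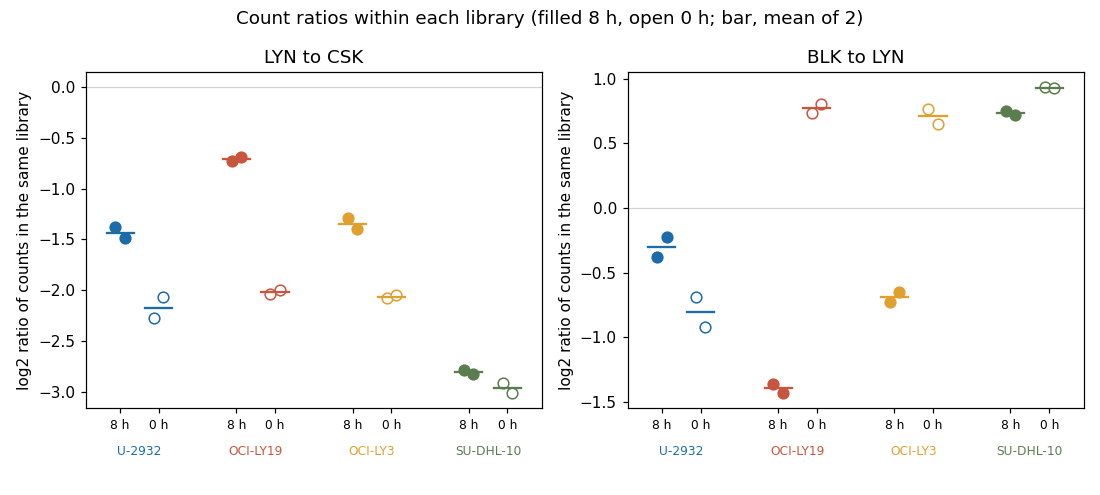
Log2 ratio of counts of 2 members in the same library, LYN to CSK on the left and BLK to LYN on the right, by line, with filled circles for 8 h, open circles for 0 h and a bar at the mean of 2. LYN to CSK is higher at 8 h in all 4 lines, and BLK to LYN is lower at 8 h in both OCI lines.

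**Figure D4:**
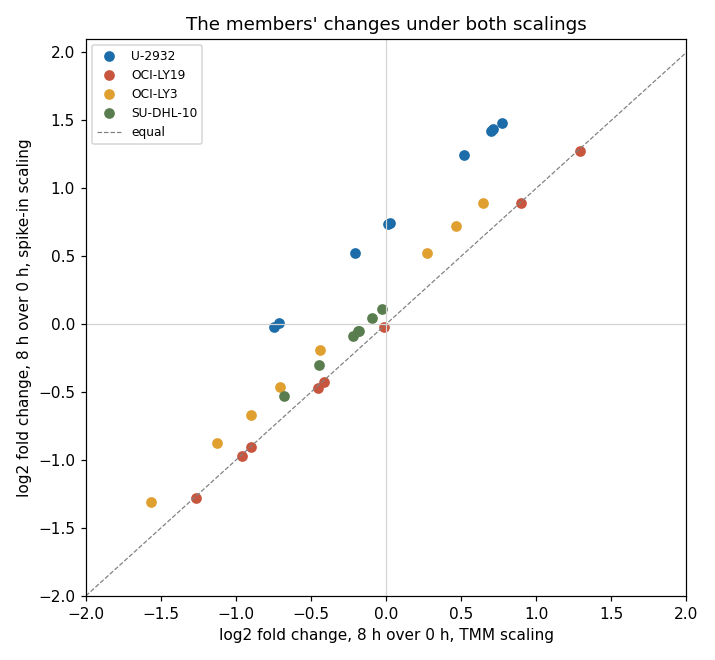
Log2 fold change of 8 h over 0 h of each member in each line with TMM scaling (x axis) and with spike-in scaling (y axis), 1 point per member and line, with the line of equality dashed. OCI-LY19 points lie on that line, while U-2932 points lie about 0.70 above it.

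At 0 h all 9 members differed between the lines, as did 87.3% of all genes (edgeR, 3 degrees of freedom). LYN ran from U-2932 (140 CPM) through OCI-LY3 (116 CPM) to SU-DHL-10 (84.1 CPM) and OCI-LY19 (82.9 CPM), and the last pair was not called different. BLK was highest in OCI-LY3 (189 CPM), then SU-DHL-10 (160 CPM), OCI-LY19 (141 CPM) and U-2932 (80.1 CPM). All neighbours in that order were called, but SU-DHL-10 and OCI-LY19 were not without replicate 1 of OCI-LY19 (adjusted p = 0.144) or of SU-DHL-10 (0.0545, edgeR). FGR ran from OCI-LY3 (163 CPM) over OCI-LY19 (89.2 CPM) and SU-DHL-10 (74 CPM) to U-2932 (3.98 CPM). The middle pair was called (adjusted p = 0.00594), but not without replicate 1 of OCI-LY19 (0.105) or of SU-DHL-10 (0.2, edgeR).

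LCK in SU-DHL-10 (193 CPM) exceeded that in U-2932 (11.6 CPM) by 4.07 ± 0.11 on the log2 scale (adjusted p = 5.53e-26, edgeR). U-2932 and OCI-LY3 (11.3 CPM) were not called different, and OCI-LY19 was lowest (4.36 CPM). FYN stood at 49.6 CPM in OCI-LY3 and close by, at 47.4 CPM, in OCI-LY19, a pair not called different. U-2932 followed with 12.5 CPM, and SU-DHL-10 had 0.206 CPM. The line richest in LCK was thus the line poorest in FYN. For SRC only the step between OCI-LY19 (1.81 CPM) and U-2932 (0.817 CPM) was called (adjusted p = 0.0064), and not without replicate 2 of OCI-LY19 (0.0611, edgeR). OCI-LY3 (3.8 CPM) and SU-DHL-10 (2.62 CPM) stood above them.

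CSK was highest in SU-DHL-10 (656 CPM) and U-2932 (628 CPM), a pair not called different, then lower in OCI-LY3 (484 CPM) and OCI-LY19 (337 CPM). PAG1 went down in steps that were all called, with 391 CPM (SU-DHL-10), 142 CPM (OCI-LY3), 57.4 CPM (OCI-LY19) and 15.8 CPM (U-2932). The order of levels between lines depends on the scaling. Relative to the spike-ins, LYN, LCK and CSK in U-2932 were below OCI-LY3, with log2 differences of -2.69, -2.94 and -2.59. With TMM these were 0.27, 0.02 and 0.38. Between 2 lines a change of scaling shifts all genes about alike, so the shift is not particular to these members. It follows the spike-in share of counts, 0.382% to 0.62% in U-2932 and OCI-LY19. In OCI-LY3 and SU-DHL-10 that share was 0.0435% to 0.0823%, and the cause of the difference was not tested. Relative to the spike-ins, CSK in SU-DHL-10 was 3.7 above U-2932, against 0.06 with TMM.

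Among kinases related to these, FRK and MATK, a relative of CSK, were also measured. MATK, seen in U-2932 only, averaged 25.5 ± 1.48 CPM at 8 h and 42.4 ± 0.267 CPM at 0 h (SD over 2 libraries each). It fell there by 0.73 on the log2 scale (SE 0.14, adjusted p = 6.77e-05, edgeR), and was at -0.01 with spike-in scaling. FRK stood at 0.41 ± 0.21 in U-2932 and was not called in any line (adjusted p = 0.111 in U-2932, edgeR), with at most 1.52 CPM on average in the other lines.

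Of 15 phosphatases, adaptors, ligases and lipid-attaching enzymes that act on the family, 4 rose and 4 fell in U-2932, 2 rose and 8 fell in OCI-LY19, 1 rose and 6 fell in OCI-LY3, and 3 rose and 2 fell in SU-DHL-10. The list's median change was 0.02, -0.50, -0.40 and 0.02 in that order of lines, beside 0 for all genes. Of all genes, 25.9% rose and 25% fell in U-2932, 21.6% and 17.8% in OCI-LY19, 13% and 12.5% in OCI-LY3, and 6.3% and 6.27% in SU-DHL-10. CBL, a ubiquitin ligase for active kinases, averaged 168 ± 4.67 CPM at 8 h and 55.3 ± 1.13 CPM at 0 h in U-2932 (1.60 ± 0.07), and 142 ± 4.27 CPM at 8 h and 107 ± 4.29 CPM at 0 h in SU-DHL-10 (0.40 ± 0.07). PTPRC, the phosphatase CD45 that removes the tyrosine phosphate placed by CSK, fell in OCI-LY3 to 167 ± 6.08 CPM at 8 h, against 377 ± 18.1 CPM at 0 h (-1.18 ± 0.07), and in OCI-LY19 to 86.4 ± 1.65 CPM at 8 h, against 211 ± 12 CPM at 0 h (-1.29 ± 0.07). It rose in U-2932 to 343 ± 5.8 CPM at 8 h, against 204 ± 21.3 CPM at 0 h (0.75 ± 0.07, adjusted p = 4.14e-11, edgeR). In SU-DHL-10 its change was -0.23 ± 0.07 (adjusted p = 0.0166), a call lost without replicate 1 at 8 h (0.0566), replicate 2 at 8 h (0.217) or replicate 1 at 0 h (0.18, edgeR). PTPN11, a phosphatase that promotes signalling, rose in U-2932 to 285 ± 0.655 CPM at 8 h, against 141 ± 3.54 CPM at 0 h (1.01 ± 0.06). PTPN22, which dephosphorylates the active family kinases and partners with CSK, fell in OCI-LY19 to 11.4 ± 1.66 CPM at 8 h, against 48.3 ± 2.81 CPM at 0 h (-2.08 ± 0.11). In OCI-LY3 it averaged 12.8 ± 0.939 CPM at 8 h and 36.8 ± 2.44 CPM at 0 h. U-2932 averaged 24.4 ± 0.284 CPM of it at 8 h and 28.5 ± 3.09 CPM at 0 h. SU-DHL-10 averaged 43.4 ± 2.47 CPM at 8 h and 54.3 ± 4.23 CPM at 0 h. SIT1, a lymphocyte membrane adaptor, changed by -2.19 ± 0.11 in OCI-LY19 and -1.40 ± 0.10 in OCI-LY3.

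Among 22 substrates and receptors that the family phosphorylates in B cells, falls outnumbered rises in every line with TMM scaling. Spike-in scaling moved the median change of all genes in U-2932 from 0 to 0.70. Neither this list nor the one before it was counted with that scaling. In U-2932 4 rose and 13 fell, in OCI-LY19 2 rose and 14 fell, in OCI-LY3 1 rose and 16 fell, and in SU-DHL-10 2 rose and 7 fell, with medians of -0.72, -0.71, -0.63 and -0.18, beside the shares of all genes given above. Of the 6 B-cell markers, 1 rose and 5 fell in U-2932, 1 fell in OCI-LY19, 5 fell in OCI-LY3 and 3 fell in SU-DHL-10, with medians of -0.72, -0.03, -0.49 and -0.20, and their part in these counts was not tested. Some genes, CD79A and CD79B among them, stand in both lists. The lists were drawn up with results of these data known, so the counts are a description. BLNK, the adaptor that links SYK to downstream enzymes, averaged 2.73 ± 0.536 CPM at 8 h and 18.6 ± 0.351 CPM at 0 h in OCI-LY19, and 5.99 ± 0.16 CPM at 8 h and 33.8 ± 1.64 CPM at 0 h in OCI-LY3. The inhibitory-type receptors FCRL3 and FCRL2 had 9.69 ± 2.36 and 13.5 ± 0.861 CPM at 8 h in U-2932, against 145 ± 15.3 and 107 ± 1.63 CPM at 0 h. CD79B averaged 31.6 ± 0.888 CPM at 8 h and 81.6 ± 6.36 CPM at 0 h in OCI-LY19, and 64.5 ± 2.29 CPM at 8 h and 104 ± 14.5 CPM at 0 h in SU-DHL-10. In U-2932 it averaged 69.9 ± 1.56 CPM at 8 h and 237 ± 7.77 CPM at 0 h. OCI-LY3 averaged 68.5 ± 4.81 CPM of it at 8 h and 154 ± 0.18 CPM at 0 h. For genes of this list and the one before it, a line not mentioned is not a line without a change. VAV1, an exchange factor, averaged 43.5 ± 1.19 CPM at 8 h and 94.4 ± 5.14 CPM at 0 h in OCI-LY3. LAT2, a membrane adaptor, rose in SU-DHL-10 to 439 ± 14.8 CPM at 8 h, against 126 ± 16.9 CPM at 0 h (1.80 ± 0.08, adjusted p = 1.33e-17, edgeR). It fell in the other lines, by 0.38 on the log2 scale in U-2932, 0.62 in OCI-LY19 and 0.38 in OCI-LY3 (adjusted p = 0.002, 3.3e-07 and 0.000621, edgeR).

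The genes whose log2 CPM most resembled each member over the 8 group means were MORF4L2 and NKIRAS2 for LYN (both r = 0.948), CDCA7L and LRRK1 for BLK (0.973 and 0.961), and PACS1 and CARS2 for FGR (0.994 and 0.992). CCNQ and EIF2B1 were nearest to LCK (0.995 and 0.993), OXR1 and FAM241A to FYN (both 0.997), TSR1 and OTULIN to SRC (0.976 and 0.965), MRPS34 and GLRX to CSK (0.993 and 0.981), and PITRM1 and MACC1 to PAG1 (0.995 and 0.989). No member was among the nearest genes of another. Among the members, LCK ran with CSK (r = 0.823) and PAG1 (r = 0.774) and against FYN (r = -0.93), and LYN ran against BLK (r = -0.73). These 8 points share 4 lines and their libraries, so the values describe mainly the line differences.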

How the data were processed

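RNA-seq counts from 16 libraries were analysed, from a table of raw counts per gene that the authors deposited and that also lists 92 spike-in RNAs. Per the labels' protocols, the RNA was poly(A)-enriched and PCR duplicates were removed. Per the submitters' processing notes, the tools of the series include Trimmomatic, Bowtie2, HOMER, MACS2 and DESeq2. These notes also name the builds GRCh38 and hg19, while the tool and the build behind the gene counts are not given in the sources used here. No use was made of the 8 ATAC-seq samples.

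Of 58676 gene IDs, 58207 matched a symbol. After filterByExpr over the 8 groups and TMM scaling, edgeR 4.0.16 (limma 3.58.1, R 4.3.3) was used for a quasi-likelihood fit of 1 mean per group (8 residual degrees of freedom), or with terms for line and time (11) for the change across lines. The median biological coefficient of variation was 8.54%. P-values were adjusted over all 17327 tested genes by Benjamini and Hochberg, with a threshold of 0.05. The SE was taken as the size of the log2 fold change over the square root of F. The floor for 0 counts was 3 counts over a group. The alternatives were DESeq2 1.42.0, other scalings and filters, a replicate block, 1 line alone, and leaving out each library or line. The fits were tested on simulated data.

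The members and lists were chosen with earlier results of these data known. Other genes are named by a rule: up to 2 called genes of each list with the smallest p in each line, and the 2 genes with the highest Pearson correlation with each member over the 8 group means, leaving out genes that average under 5 CPM. A gene that this rule also names is not reported here. Motifs were searched on both strands of RefSeq promoter windows. ZNF385B and PYGO1 are the genes so named for YES1 (both r = 1), over groups that, outside U-2932, were at or near 0 counts.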

Additional observations from a re-analysis of the deposited data

Results flagged for a closer look

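The change after 8 h differed between the 4 lines, by a test of the difference itself, for 7 members (edgeR's quasi-likelihood test with 3 degrees of freedom, adjusted over all genes). The adjusted p was 6.18e-17 for BLK, which with TMM scaling rose in U-2932 and fell in the other lines. It was 3.75e-11 for FGR, which fell in both OCI lines, and 5.63e-11 for PAG1, which rose in U-2932 and fell in both OCI lines. For LYN, which rose in both OCI lines and, with spike-in scaling, also in U-2932 (0.74), it was 5.43e-10. CSK, which fell in all lines with TMM scaling, had 2.47e-05, and 0.264 with spike-in scaling. FYN had 0.00182, and 0.27 without OCI-LY3. SRC, low in all lines, had 0.00345. As many as 53.5% of all tested genes passed the same test.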

How the results depend on the processing

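The count of called members in SU-DHL-10, 3 as reported, was 1 without TMM, 1 with spike-in scaling, 1 with that line's libraries alone, and 1 to 3 when single libraries were left out. Across lines it was 3 as reported, 5 with no filter, 6 without U-2932, 5 without SU-DHL-10 and 7 as the mean of the 4 line contrasts. The counts in the other lines, between lines and at 0 h stayed within 1.5 times of those reported under all alternatives run. A like count need not hold the same members. In U-2932 it was 7 with spike-in scaling, against 5 as reported. LCK and CSK lost their calls there, and LYN, FGR, FYN and SRC were called higher. Over all genes, the called number was 4206 with spike-in scaling in OCI-LY19, against 6821 as reported. In SU-DHL-10 it was 765 with spike-in scaling, 643 with its libraries alone, 945 without replicate 1 at 8 h and 1005 without replicate 2 at 8 h, against 2179. Across lines it was 1429 without OCI-LY3 and 7105 as the mean of the 4 contrasts, against 3142. The causes were not tested.

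Changes at 8 h that turned sign with spike-in scaling were CSK (0.011) and FYN (0.52) in U-2932, LYN (0.11) and PAG1 (0.049) in SU-DHL-10, and PAG1 across lines (0.11). So did the U-2932 changes of CSK minus those in OCI-LY19 (0.44), OCI-LY3 (0.20) and SU-DHL-10 (0.062), and of LYN minus that in OCI-LY3 (0.22). At 0 h the spike-ins turned LYN (-2.69), LCK (-2.94) and CSK (-2.59) in U-2932 minus OCI-LY3, LYN (-0.22), BLK (-0.43) and SRC (-0.14) in OCI-LY3 minus SU-DHL-10, and FGR (-3.12) in OCI-LY19 minus SU-DHL-10. Without TMM, LYN in SU-DHL-10 was 0.033, CSK in U-2932 minus OCI-LY19 0.048, FYN across lines -0.016, LYN at 0 h in SU-DHL-10 minus OCI-LY19 -0.15 and FYN at 0 h in OCI-LY3 minus OCI-LY19 -0.14. With the filter at 5 CPM, LYN in U-2932 was -0.0082, LYN at 0 h in SU-DHL-10 minus OCI-LY19 -0.082, FYN at 0 h in OCI-LY3 minus OCI-LY19 -0.012 and CSK at 0 h in SU-DHL-10 minus U-2932 -0.026. FYN across lines was -0.18 without OCI-LY3 and -0.32 as the mean of 4 contrasts, and PAG1 was 0.041 without OCI-LY3.

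Leaving out single libraries, the range was -0.064 to 0.10 for LYN in U-2932, -0.11 to 0.17 for FGR in U-2932, -0.063 to 0.0021 for LYN in SU-DHL-10, -0.023 to 0.12 for FYN across lines and -0.12 to 0.18 for LCK at 0 h in U-2932 minus OCI-LY3. All of these were uncalled. FYN in SU-DHL-10 and YES1 outside U-2932 had too few counts for a change to be measured, and 2 libraries per group limit every test.

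Same-numbered replicates did not deviate together (correlations of -0.12 in U-2932, -0.03 in OCI-LY19, 0.02 in OCI-LY3 and 0.0069 in SU-DHL-10 over 9848 genes), so the numbers were not taken as pairs. With a replicate block, 5, 7, 7 and 3 members were called in U-2932, OCI-LY19, OCI-LY3 and SU-DHL-10, 3 across lines and 7 between lines, as without it. The SRC change in U-2932 minus that in SU-DHL-10, which is not reported above, was 1.22 without and with the block. Its adjusted p was 0.0447 without the block and 0.0545 with it (edgeR). It was also not called with no filter (adjusted p = 0.0712, edgeR) or with DESeq2 (0.0685). Leaving out single libraries, it ranged from 0.68 to 1.62. With the replicate numbers of U-2932 crossed, an alternative chosen after seeing the data, 5 members and 8703 genes were called there.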
